A study of Mus musculus with 5 samples.

Results

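RNA polymerase II (Pol II) peaks at the 3' ends of protein-coding genes were examined in regulatory T (Treg) cells with and without Setd2, which makes the trimethylated form of lysine 36 on histone H3 (H3K36me3). A peak was placed in this class when it lay on chromosomes 1 to 19, was shorter than 5 kb, had its midpoint within 1 kb of the annotated 3' end of a protein-coding gene, and had that midpoint more than 3 kb from every annotated transcription start site (TSS). Positions alone decided membership, and no count was used. Of the 56615 peaks in the table, 1822 (3.22%) met the rule, and they lay at the 3' ends of 1610 genes. These are called 3' end peaks here. They are compared with 24202 other gene body peaks and 21004 promoter peaks, a promoter peak having its midpoint within 3 kb of a TSS.

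The nuclei came from splenic Treg cells of C57BL/6 mice, 8 weeks old and of both sexes pooled. All mice had received IL-2c, which is 1 µg IL-2 bound to 5 µg of the anti-IL-2 antibody JES6-1 and which expands Treg cells, on 3 days, and were killed 48 hours after that. Control mice (Ctrl, Foxp3CreSetd2flox/+) and knockout mice (KO, Foxp3CreSetd2flox/flox) both carried Foxp3-driven Cre, so Ctrl Treg cells kept 1 Setd2 allele and the comparison was 1 allele against none. The Foxp3 promoter drives the Cre, and Cre-expressing CD3+CD4+ cells were sorted by a YFP reporter. There were 2 Ctrl and 2 KO libraries of 80000 nuclei each. The labels give 2 mice and cells of 2 mice were pooled, and whether each library had its own mice is not stated, so the p-values below measure the spread between libraries, which may be technical. CUT&Tag uses an antibody held on chromatin to direct a transposase to the DNA beside it, so that reads collect where Pol II sits. It reports position but not strand, and it does not separate paused from moving polymerase.

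Pol II transcribes past the end of the mature RNA. The cleavage and polyadenylation machinery recognises a poly(A) signal, most often AATAAA, in the nascent RNA shortly before the cleavage site, and cuts there. The polymerase then continues downstream until an exonuclease that degrades the remaining RNA reaches it and transcription terminates. Pol II often slows near the end of a gene, and H3K36me3 is laid down over gene bodies by Setd2 travelling with elongating Pol II, rising toward the 3' end.

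The last 30 bases before the annotated 3' end are shown for the genes whose 3' end peaks are described in detail below, to show which ends carried a poly(A) signal. They are written 5' to 3' on the strand of the gene (GRCm38, the assembly that mm10 denotes), with the last AATAAA or, where there is none, ATTAAA in capitals. The first 3 are among the 10 peaks with the highest counts per kb, the next 5 were higher and the last 3 lower in both KO libraries.
Lars2 (chr9:123462637-123462666, plus strand): cattgaattAATAAAtgttgtgaaccataa
Slc34a3 (chr2:25228898-25228927, minus strand): ctccttttcaAATAAAcgaggttactattg
Csrp1 (chr1:135752203-135752232, plus strand): atctgatcAATAAAgcaatttagaactgaa
Icos (chr1:61000291-61000320, plus strand): aacagccAATAAAtatgctttgtgagagaa
Cxcr6 (chr9:123811731-123811760, plus strand): aagaAATAAAaccttttaaatgttttcaaa
Cstf1 (chr2:172382419-172382448, plus strand): tctaaAATAAAttttttttatataacagtg
Supt20 (chr3:54728737-54728766, plus strand): aaatacaatttttacagctgttttgcagtc
Fancc (chr13:63285043-63285072, minus strand): ttcaaagtgatattttacaggaacttcagt
Cxcr4 (chr1:128588199-128588228, minus strand): attgttAATAAAagtcaatgataaacttaa
Dhx38 (chr8:109548011-109548040, minus strand): tttggaAATAAAtatattatttgtacaata
Hsph1 (chr5:149614287-149614316, minus strand): ccATTAAAgctactggggcaacctaaagac

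The signal was followed by 17 bases at Icos, 20 at Cxcr6, 19 at Cstf1, 18 at Cxcr4 and Dhx38 and 22 at Hsph1, while Supt20 and Fancc held neither hexamer. AATAAA stood in the last 30 bases of 52.6% of the 1610 genes with a 3' end peak. The share was 52.7% among the 14591 coding 3' ends that lay more than 3 kb from a TSS, nearly the same. ATTAAA without AATAAA stood in 11.6% of genes with a peak and 12.2% of those 14591 ends, and neither was found in 35.8% and 35.0%.

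The libraries differed in depth. Total counts ran from 4489646 in KO 2 to 13351007 in KO 1, and the libraries numbered 2 were the shallower of both genotypes. Markers of T and Treg cells (Cd3e, Cd3g, Cd4, Ikzf2, Il2ra and Ctla4) all had promoter peaks, with normalized counts summed over the list from 3110 to 3680. Of other cell types, no CD8 T or NK marker had a promoter peak in the table. Of 6 B cell markers 2 did (Cd79a and Cd79b, summed counts 89.1 to 136.3). Of 6 myeloid markers 3 did, with summed counts from 1082 in KO 2 to 1487 in Ctrl 2 that came mostly from Cd68, and of 5 erythroid markers 1 did (Klf1, 185.6 to 225.2). Ms4a1, Lyz2, Csf1r, Cd8a and Gata1 had none, although a list of called peaks does not show that a promoter was at 0. The summed myeloid count was lower in both KO libraries, as was Cd68, with 1263 and 1298 in Ctrl and 1104 and 935 in KO. At Spi1 and at Cd14 the genotypes overlapped, so the lower sum rests on Cd68. The part of other cell types in the differences below was not tested.

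The first question was where along the end of a gene the peaks lay. Peaks were scarce at the annotated 3' end itself and common on both sides of it. Of the 1822 peaks, 744 had their midpoint 250 to 1000 bp upstream of the end, 799 lay 250 to 1000 bp downstream, and 279 lay within 250 bp of it. Per megabase of sequence more than 3 kb from a TSS, around all 20807 autosomal coding 3' ends, the density of peak midpoints was 76.8 in the upstream flank and 82.6 in the downstream flank, against 39.8 within 250 bp. It was 77.2 further inside the gene, from 3000 to 1000 bp upstream, and 64.3 from 1000 to 3000 bp downstream. The density within 250 bp was therefore 0.50 times that of both flanks together.

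The low density was not limited to midpoints. Peaks covered 3.85% of the bases within 250 bp of the end, against 5.58% of the flanks. Among peaks shorter than 600 bp the ratio of densities was 0.43, and among peaks with a count above the median of those counted it was 0.53. It was 0.48 around ends with AATAAA and 0.57 around ends with neither hexamer. These settings were chosen after the data were seen.

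**Figure D1:**
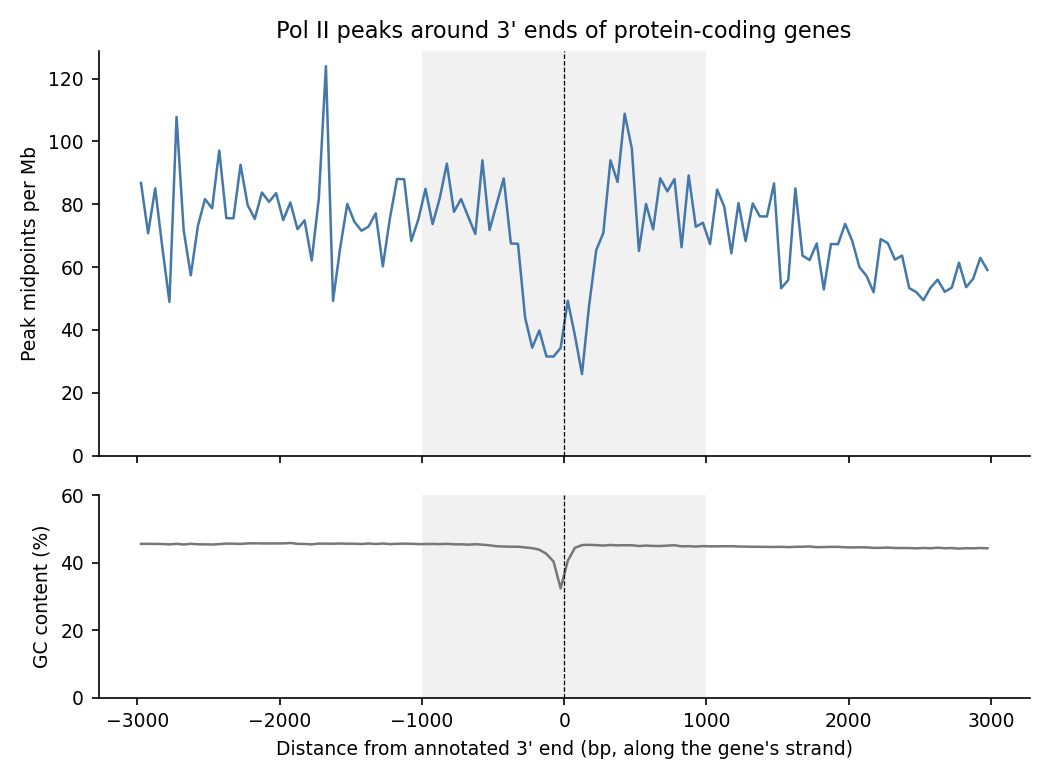
Density of Pol II peak midpoints per megabase (upper panel) and GC content in percent (lower panel) in 50 bp bins by distance from the annotated 3' end in bp, negative values lying inside the gene; only sequence more than 3 kb from a TSS is counted, and grey marks the 1 kb window that defines 3' end peaks. The density varies from bin to bin and is lower within 250 bp of the end, at 39.8 per megabase over that window, than in the flanks at 76.8 and 82.6.

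Base composition also moved at the 3' end. GC content was 32.4% in the 50 bp before the end, against 45.3% in the upstream flank and 45.1% in the downstream flank. From 250 to 200 bp upstream it was 44.4%, with a peak density of 34.4 per megabase. From 200 to 250 bp downstream it was 45.3%, with a density of 65.4. These densities are of midpoints, and the median 3' end peak, 524 bp long, can reach the end from either bin. The part of base composition, and of the ability to map reads uniquely, in the low density was not tested.

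Most genes had a single peak, and those with more usually had one on each side. Of the 1610 genes, 1403 had 1 such peak, 202 had 2 and 5 had 3. Among the 207 genes with more than 1, 186 (89.9%, or 11.6% of the 1610) had at least 1 midpoint upstream and 1 downstream of the end. The 5 genes with 3 were Eif2b5, a subunit of the guanine nucleotide exchange factor of translation initiation, Mlxip, a glucose-sensing transcription factor, Nrros, which regulates reactive oxygen species and TGF-β, Slc7a5, the large neutral amino acid transporter induced in activated T cells, and Tmem191c. At Slc7a5 the peaks lay 732 bp upstream and 358 and 939 bp downstream of the end. The upstream peak held normalized counts of 150.9, 158.4, 96.8 and 132.8 in Ctrl 1, Ctrl 2, KO 1 and KO 2. The near downstream peak held 48.9, 64.8, 43.4 and 73.2, which overlapped, and the far one 112.1, 114.4, 63.6 and 98.8. The upstream and the far peak were lower in the KO libraries without overlap, with log2 fold changes of -0.45 ± 0.32 (SE) and -0.51 ± 0.37 and unadjusted DESeq2 p-values of 0.156 and 0.161, and the near peak had 0.01 ± 0.46. All 3 lie inside a further annotated coding gene, Gm20388, and those of Tmem191c inside Pi4ka.

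By annotation of the midpoint, 959 peaks (52.6%) lay downstream of the gene, 556 (30.5%) in its 3' untranslated region, 179 in an intron, 127 in a coding exon and 1 in a 5' untranslated region of another transcript. A total of 434 peaks (23.8%) spanned the annotated end. Reads carry no strand, so neighbouring genes cannot be separated: 214 peaks were within 1 kb of the 3' ends of a pair of coding genes, 204 of these between convergent genes, and 345 lay inside another coding gene.

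The 3' end peaks were short and of middling height. Their length ran from 222 to 4990 bp with a median of 524 bp, and their mean normalized count over the 4 libraries ran from 14.2 to 1829 with a median of 58.2. Normalized counts are counts divided by the size factor of each library. Per kb of peak, the median normalized count was 106.5 for 3' end peaks, 104.5 for other gene body peaks and 132.0 for promoter peaks, so 3' end peaks stood at the level of the gene body. The median per kb of 3' end peaks was 103.0 and 112.6 in Ctrl 1 and 2, and 105.2 and 116.3 in KO 1 and 2. It was higher in the libraries numbered 2 in both genotypes. The 104 peaks with midpoints in the outermost 50 bp of the window had a median normalized count of 55.7 and a median log2 fold change of KO over Ctrl of 0.10, and the 88 peaks in the next 50 bp outside it had 64.8 and 0.06.

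In sequence, 3' end peaks stood near other gene body peaks in CpG content and between these and promoter peaks in GC content. Their median GC content was 51.8%, with 49.6% for other gene body peaks and 54.2% for promoter peaks. The ratio of observed to expected CpG was 0.20 for both 3' end and other gene body peaks, against 0.37 for promoter peaks. Motifs were searched on both strands of the central 200 bp. The ETS letters CCGGAAGT were in 0.384% of 3' end peaks, 0.285% of other gene body peaks and 1.86% of promoter peaks. The AP-1 letters TGANTCA were in 4.50%, 6.66% and 4.73% of these classes in the same order, and the RUNX letters TGTGGTTT in 0.988%, 1.74% and 1.22%. For both, the share in 3' end peaks was nearer to that in promoter peaks. The forkhead letters TGTTTAC were in 2.41%, 2.60% and 1.89%, and the GATA letters AGATAA in 6.92%, 8.04% and 5.58%. AATAAA itself was in 12.1%, 10.6% and 8.20%.

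Whether a 3' end had a peak went with Pol II at the promoter of the same gene. Of the 14591 ends more than 3 kb from a TSS, 1514 (10.4%) were the nearest end of at least 1 peak. Among the 6884 genes with no promoter peak the share was 2.41% (95% Wilson interval 2.07 to 2.80, which covers counting error only). The genes with a promoter peak were split into 3 equal groups by normalized count per kb of their promoter peaks. The share was 14.1% (12.8 to 15.5) in the low group, 19.2% (17.7 to 20.7) in the middle group and 19.2% (17.8 to 20.8) in the high group. The interval of genes without a promoter peak overlapped none of the others, while the intervals of the middle and high groups overlapped almost entirely. By gene length in 4 equal groups, the share was 12.2% in the shortest and 8.50% in the longest. Promoter and 3' end peaks were called on the same libraries, so a gene's promoter and 3' end are not independent measurements.

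**Figure D2:**
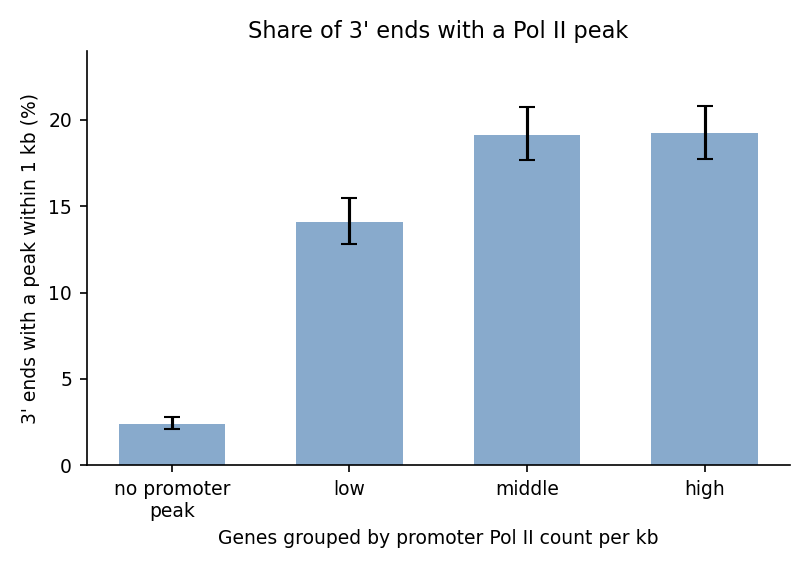
Percent of 3' ends more than 3 kb from a TSS that are the nearest end of at least 1 Pol II peak, for genes with no promoter peak and for 3 equal groups of the others by promoter normalized count per kb; bars show the share and error bars the 95% Wilson interval. The share is 2.41% without a promoter peak and 14.1%, 19.2% and 19.2% in the low, middle and high groups.

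Among genes with both, the height at the 3' end followed the promoter only weakly. Across 1605 peaks with enough counts at both places, Spearman's rho between the 2 levels per kb was 0.04, a description across genes that share libraries. The ratio of counts per kb at the 3' end to that over the promoter had a median of 0.553 and 0.676 in the Ctrl libraries, against 0.589 and 0.695 in KO. Other gene body peaks gave 0.559, 0.666, 0.580 and 0.686 in that order. The ratio was above 1 in all 4 libraries at 132 peaks (8.22%).

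The tallest peaks per kb were led by Lars2, the mitochondrial leucyl-tRNA synthetase. Its peak, 378 bp long in the 3' untranslated region (chr9:123461799-123462176), held 820.9 and 832.2 normalized counts in Ctrl, against 887.6 and 953.8 in KO. The KO libraries were the higher, by 0.15 ± 0.19 (SE) on the log2 scale with an unadjusted p-value of 0.412. At 2311 counts per kb it was far above the next peak, and its ratio to the promoter was 11.9, 20.5, 16.7 and 20.6. The sequence of this peak also matched 4 other places in the genome at 95% identity or more over at least 100 bases, the longest over 236 bases at 98.3%, so its count is uncertain.

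The next peak per kb lay at H2-Q6, a class I histocompatibility gene, with 488.6 counts per kb. It belongs to a family of near-identical genes, and its sequence matched elsewhere over 1528 bases at 97.1%, so its count is uncertain too. The other 8 of the tallest 10 had no such match. They were Slc34a3, a sodium phosphate cotransporter, with 466.6 counts per kb, 4930595D18Rik with 458.2, Zfp385c with 431.9, the cyclin-dependent kinase Cdk11b with 397.6, the LIM domain protein Csrp1 with 379.4, 9930022D16Rik with 373.8, the zinc finger gene Zscan10 with 372.7 and the calcium channel subunit Cacnb1 with 348.8. Slc34a3 held 165.3 and 151.6 in Ctrl and 145.6 and 112.4 in KO, with no overlap between genotypes and a log2 fold change of -0.28 ± 0.31 (SE). Csrp1 held 183.3 and 234.2 in Ctrl and 172.9 and 236.7 in KO, with both numbers 2 above both numbers 1. The 5 highest ratios to the promoter were those of Lars2, Zfp385c, 4930595D18Rik, Ttll10, a tubulin glycylase family gene, and Cacnb1. The Zfp385c peak lay inside the convergent gene Nkiras2, so its signal cannot be credited to Zfp385c alone, and the Cdk11b peak was shared with the convergent 3' end of Mmp23.

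The next comparison was KO against Ctrl at each peak, which asks whether loss of Setd2 changed Pol II at gene ends. No 3' end peak changed at an adjusted p-value under 0.05. DESeq2 called 0 of 1822 (0.0% of all 56615 peaks tested), with a lowest adjusted p-value of 1.00 among 3' end peaks. The edgeR quasi-likelihood test also called 0, with a lowest adjusted p-value of 0.297, against 0.0477% of all peaks. At an unadjusted p-value under 0.05, DESeq2 gave 32 peaks (1.76%, against 1.53% of all peaks) and edgeR 84 (4.61%, against 3.63%). Of the 32, 24 were higher in KO (1.32%, against 0.862% of all peaks) and 8 were lower (0.439%, against 0.664%). This balance depended on single libraries, both for 3' end peaks and over all peaks. Without KO 1 it turned to more lower than higher peaks in both. The median log2 fold change of 3' end peaks minus that of all peaks, 0.040, was -0.0115 without Ctrl 1 and -0.01155 without KO 2. It was 0.102 without Ctrl 2 and 0.105 without KO 1.

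The fold changes were small. The median log2 fold change of 3' end peaks was 0.03, with an interquartile range from -0.21 to 0.29, against a median of -0.01 over all peaks. The median SE was 0.45, so the design resolves only large changes at single peaks. Above 0 lay 954 peaks (52.4%, against 48.9% of all peaks). Both KO libraries lay above both Ctrl libraries at 366 peaks (20.1%, against 16.2%) and below at 274 (15.0%, against 16.1%).

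**Figure D3:**
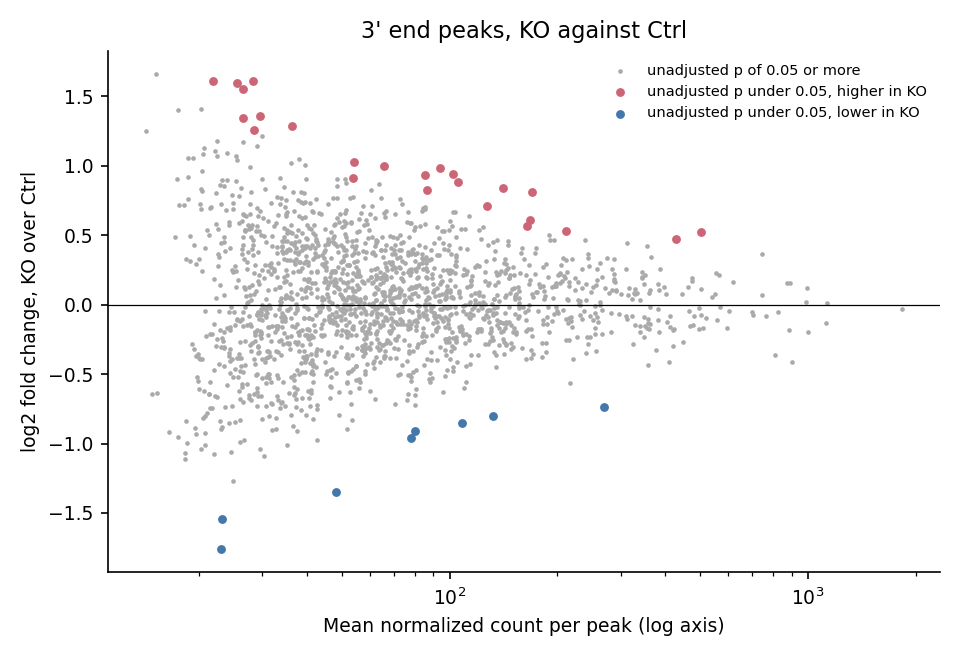
Log2 fold change of KO over Ctrl against the mean normalized count (log axis) for the 1822 3' end peaks, each a point; coloured points have an unadjusted DESeq2 p-value under 0.05. There are 24 coloured points above 0 and 8 below it, none passes adjustment, and the spread widens at low counts.

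The share of a library's reads in 3' end peaks did not separate the genotypes. It was 2.09% and 2.30% in the Ctrl libraries, against 2.18% and 2.38% in KO. Both genotypes overlapped, and within each the shallower library was the higher. The means were 2.20% ± 0.150 (SD, n = 2) for Ctrl and 2.28% ± 0.138 for KO, a difference of 0.086 points with an exact permutation p-value of 0.667 (two-sided). With 2 libraries against 2 that test cannot go below 0.333. Between libraries of the same number, KO exceeded Ctrl by 0.094 and 0.078 points. Without Ctrl 1 the difference was -0.020 points and without KO 2 it was -0.012.

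The ratio of 3' end to promoter was tested within genes, in 1 model of both counts with library as a term. No ratio changed at an adjusted p-value under 0.05: DESeq2 called 0 of 1635 and edgeR 0, with 0.0% of the 24426 non-promoter peaks tested called by DESeq2. The unadjusted p-value was under 0.05 at 25 by DESeq2 (1.53%, against 1.44% of those tested) and at 36 by edgeR (2.20%, against 2.28%). By DESeq2, 21 were higher in KO and 4 lower, against 0.97% and 0.467% of all peaks in that fit. The count of 25 rose without KO 1 and fell without Ctrl 2 and without KO 2, as did the count over all peaks in that fit. Without Ctrl 1 the split turned to more lower than higher peaks, again in both. The median log2 change of the ratio was 0.06, against 0.04 over all peaks in that fit. The log2 of the median ratio differed by 0.07 between KO and Ctrl, with an exact permutation p-value of 0.667.

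By position, 12 of the 863 peaks upstream of the end were higher (1.39%) and 1 lower (0.116%) in KO at an unadjusted p-value under 0.05, and 12 of the 959 downstream were higher (1.25%) and 7 lower (0.73%). Over all peaks these shares were 0.862% and 0.664%. Whether the 2 sides differ was not tested. The 204 peaks between convergent genes had a median log2 fold change of 0.09, with both KO libraries above both Ctrl at 57 (27.9%, against 16.2% of all peaks) and below at 20 (9.8%, against 16.1%). Of the 345 peaks inside another coding gene, 10 were higher (2.90%, against 0.862%) and 0 lower (against 0.664%) at an unadjusted p-value under 0.05 by DESeq2, and none passed adjustment.

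Of the peaks with both KO libraries on one side, the 8 higher with the lowest unadjusted p-values were at Clec2d, Supt20, Il16, Fancc, Icos, Cxcr6, Cstf1 and Cideb. They are described by their values, since none passed adjustment. Icos, a costimulatory receptor of activated T cells and Treg cells, had a peak 774 bp upstream of its end in the 3' untranslated region (chr1:60998888-61000203). It held 74.8 and 73.0 in Ctrl 1 and 2 and 128.9 and 144.8 in KO 1 and 2. The genotypes did not overlap, the log2 fold change being 0.88 ± 0.34 (SE) with an unadjusted p-value of 0.00903. The ratio to the Icos promoter was 0.375 and 0.427 in Ctrl and 0.639 and 0.724 in KO.

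Cxcr6, the receptor of the chemokine CXCL16, had a peak on each side of its end. The downstream peak (chr9:123812002-123812883) held 58.2 and 59.2 in Ctrl and 113.5 and 110.7 in KO. The peak in the coding exon held 7.91 and 13.8 in Ctrl and 23.2 and 42.6 in KO. Both were higher in both KO libraries, with log2 fold changes of 0.93 ± 0.37 (SE) and 1.61 ± 0.72 and unadjusted p-values of 0.0105 and 0.0259. Cxcr6 had no promoter peak, and both peaks lie inside the gene Fyco1, so their signal cannot be credited to Cxcr6 alone.

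Cstf1 encodes a subunit of the cleavage stimulation factor, which acts in 3' end formation itself. Its peak in the 3' untranslated region (chr2:172381817-172382168) held 12.2 and 15.2 in Ctrl and 41.6 and 37.5 in KO. The KO libraries were the higher, at low counts, the log2 fold change being 1.55 ± 0.63 (SE) with an unadjusted p-value of 0.0133. Its ratio to the promoter was 0.103 and 0.101 in Ctrl and 0.378 and 0.239 in KO, which gave the lowest p-value of the ratio test among 3' end peaks higher in KO, 0.00394 before adjustment. Of the 6 peaks of the 3' end formation list, only that of Cstf1 had an unadjusted DESeq2 p-value under 0.05 in the fit per peak. That is 16.7%, against 0.862% of all peaks higher in KO, and it rests on this 1 peak of low counts.

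Clec2d, a C-type lectin that is a ligand of NK cell receptors, held 134.4 and 111.6 in Ctrl and 223.4 and 209.5 in KO. Il16, which encodes a cytokine precursor that binds CD4, held 102.8 and 97.8 in Ctrl and 162.8 and 199.3 in KO. Supt20, a subunit of the SAGA coactivator complex, held 70.4 and 68.9 in Ctrl and 127.1 and 141.4 in KO. At all 3 the genotypes did not overlap, with log2 fold changes of 0.81 ± 0.29 (SE), 0.84 ± 0.31 and 0.94 ± 0.34. The Supt20 peak, 896 bp downstream, lay inside the convergent gene Exosc8, a subunit of the RNA exosome, and the Il16 peak inside Stard5.

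Fancc, of the Fanconi anaemia DNA repair complex, held 68.3 and 56.5 in Ctrl and 108.1 and 143.1 in KO. Cideb, a lipid droplet protein gene, held 11.5 and 13.8 in Ctrl and 30.9 and 46.0 in KO. Both had KO above Ctrl without overlap, and both peaks lay inside another coding gene, 2010111I01Rik and Nop9. Thus 5 of these 8 peaks, at Supt20, Il16, Fancc, Cxcr6 and Cideb, lay inside a further coding gene, beside 18.9% of all 3' end peaks. The 8 were picked by their p-values, and whether they differ in this was not tested.

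The 8 lower peaks with the lowest unadjusted p-values were at Siah2, Asna1, Dhx38, Olfr718-ps1, Wwc1, Cxcr4, Hsph1 and Sec63. Of these, 7 lay downstream of the gene, beside 52.6% of all 3' end peaks. These 8 were picked by their p-values too, and whether they differ in place was not tested. Siah2, an E3 ubiquitin ligase, had the tallest, with 391.0 and 282.5 in Ctrl and 211.5 and 194.2 in KO. Cxcr4, the receptor of CXCL12 that retains lymphocytes in marrow and lymphoid tissue, held 161.7 and 119.9 in Ctrl and 95.1 and 57.9 in KO. Hsph1, a heat shock protein of the HSP110 family, held 202.0 and 136.4 in Ctrl and 117.0 and 74.9 in KO. The genotypes did not overlap at any of these, with log2 fold changes of -0.73 ± 0.26 (SE), -0.85 ± 0.37 and -0.80 ± 0.35 and unadjusted p-values of 0.00532, 0.0200 and 0.0220.

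Dhx38, an RNA helicase of the spliceosome, had the lowest fold change of the 8. Its downstream peak (chr8:109546994-109547330) held 31.6 and 39.96 in Ctrl and 11.9 and 8.52 in KO, with a log2 fold change of -1.76 ± 0.68 (SE). Its other 3' end peak, in a coding exon, held 14.4 and 39.96 in Ctrl and 8.32 and 27.3 in KO, which overlapped. In the fit of the ratio, the Dhx38 promoter was lower in KO as well, at -1.17 on the log2 scale, and the ratio changed by -0.55 ± 0.64.

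Asna1, an ATPase that delivers tail-anchored proteins to the endoplasmic reticulum, held 60.4 and 79.9 in Ctrl and 33.9 and 18.7 in KO. Sec63, of the protein translocation channel of the same organelle, held 29.5 and 41.3 in Ctrl and 18.4 and 3.41 in KO. At both the promoter moved less than the 3' end, and the log2 change of the ratio was -1.18 ± 0.49 (SE) at Asna1 and -1.40 ± 0.71 at Sec63, with unadjusted p-values of 0.0149 and 0.0486. Wwc1, a regulator of Hippo signalling, and the olfactory receptor gene Olfr718-ps1 had no promoter peak, and their log2 fold changes were -0.96 ± 0.41 and -0.91 ± 0.38.

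**Figure D4:**
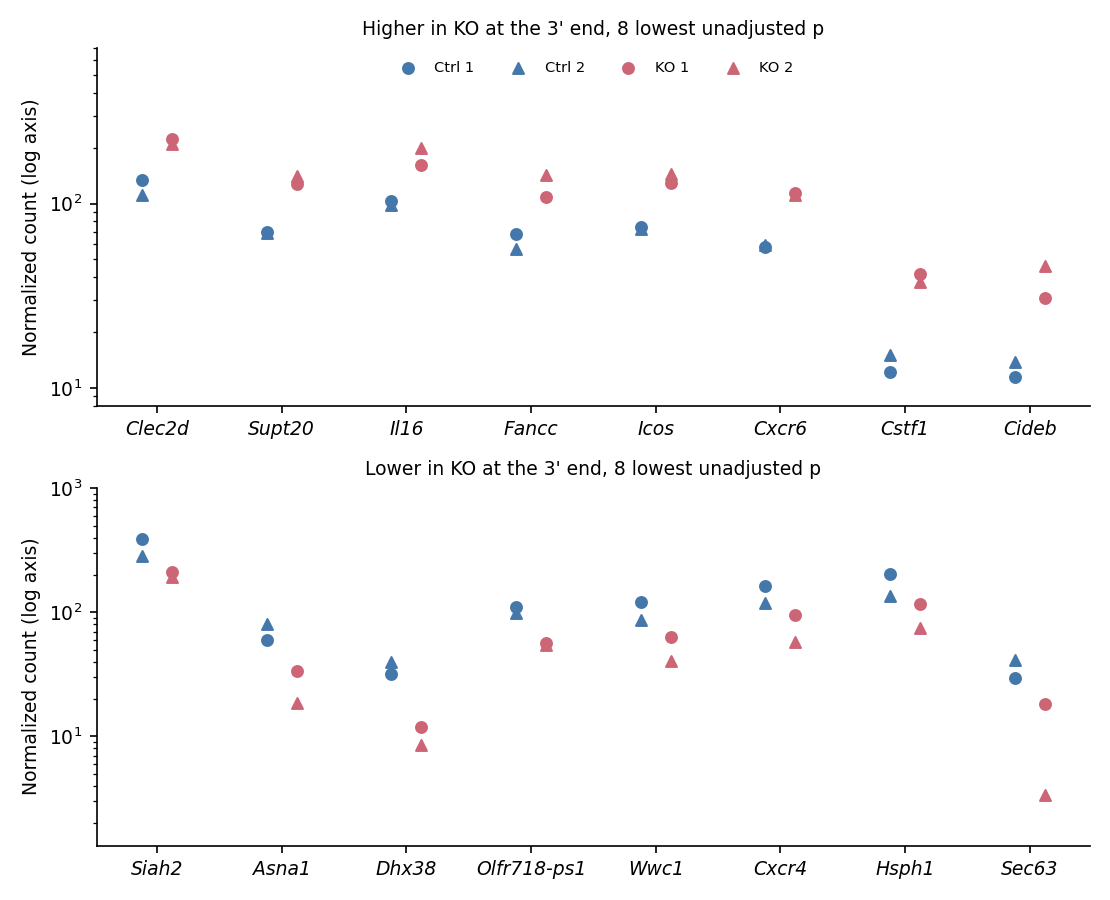
Normalized counts (log axis) in each library at the 8 higher and the 8 lower 3' end peaks with the lowest unadjusted DESeq2 p-values; circles are libraries numbered 1, triangles those numbered 2, blue Ctrl and red KO. The genotypes do not overlap at any of the 16 by the rule that chose them, and at Sec63 the KO libraries are far apart, at 18.4 and 3.41.

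The other low p-values of the ratio test were at Cntrl, a centrosome protein, Hopx, a small homeodomain protein, and Cog5, of the Golgi, which were higher, and at Pabpc1, the cytoplasmic poly(A) binding protein, and Fyn, a Src family kinase of T cell receptor (TCR) signalling, which were lower. Hopx held 23.7 and 23.4 in Ctrl and 36.2 and 61.3 in KO. Its ratio to the promoter was 0.152 and 0.210 against 0.313 and 0.700. Fyn, at the peak 252 bp downstream, held 38.8 and 63.4 in Ctrl and 33.3 and 23.8 in KO, with a log2 change of the ratio of -0.90 ± 0.46 (SE). The genotypes did not overlap at either. The Cog5 peak lay inside the coding gene Hbp1.

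Gene lists were then read against the peaks. Of 46 listed genes of Treg identity and effector function whose end lay more than 3 kb from a TSS, 22 (47.8%) had a 3' end peak. The share was 60.6% for TCR and costimulation signalling (20 of 33), 43.8% for NF-κB and its inhibitors (7 of 16), 25.0% for elongation and H3K36 methylation (5 of 20) and 18.5% for 3' end formation and termination (5 of 27), beside 10.4% of all such ends. The lists were written by gene function, with earlier results of these data known. Why their shares differ from that of all such ends was not tested.

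The 25 Treg peaks had a median log2 fold change of -0.10, with 3 higher in KO (Icos and both of Cxcr6) and 0 lower by unadjusted DESeq2 p-values under 0.05, against 0.862% and 0.664% of all peaks. Both Cxcr6 peaks are at 1 locus inside Fyco1. None passed adjustment. Il2ra, the high-affinity IL-2 receptor chain, held 501.0 and 425.7 in Ctrl and 394.5 and 361.1 in KO. Stat5a, which signals from that receptor, held 293.3 and 347.2 in Ctrl and 360.0 and 374.7 in KO. The Stat5a peak lies inside the convergent gene Stat3 and near its 3' end, so it cannot be credited to Stat5a alone. Neither overlapped, in opposite directions, with log2 fold changes of -0.29 ± 0.22 (SE) and 0.20 ± 0.23 and unadjusted p-values of 0.186 and 0.385.

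Tgfb1, the immunosuppressive cytokine of Treg cells, had peaks on both sides, with log2 fold changes of 0.34 ± 0.27 (SE) and 0.26 ± 0.26. Gata3, a transcription factor of Th2 cells and of tissue Treg cells, held 89.8 and 44.1 in Ctrl and 63.6 and 57.9 in KO at its 3' end, and the genotypes overlapped. Ikzf2, which encodes Helios, held 214.2 and 187.4 in Ctrl and 186.0 and 185.6 in KO. Across the list the fold changes ran from -0.75 at Ccr4, a chemokine receptor, to 1.61 at Cxcr6.

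In the TCR list, 27 peaks had a median log2 fold change of 0.06, and DESeq2 gave none of them an unadjusted p-value under 0.05. Both KO libraries lay above both Ctrl at 6 (22.2%, against 16.2% of all peaks) and below at 5 (18.5%, against 16.1%). The genotypes overlapped at the other 16. Cd6, a scavenger receptor of the T cell surface, had the most even of the tall peaks, with 1105 and 1148 in Ctrl and 1117 and 1158 in KO. The log2 fold change there was 0.01 ± 0.18 (SE). Zap70, the kinase recruited to the TCR, held 48.2 and 44.1 in Ctrl and 60.6 and 86.9 in KO. The adaptor Lat had both of its peaks higher in the KO libraries, with log2 fold changes of 0.29 ± 0.45 and 0.36 ± 0.33, well within their errors.

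The 8 NF-κB peaks had a median of 0.12 and no unadjusted p-value under 0.05. Birc3, an inhibitor of apoptosis and a target of NF-κB, held 33.1 and 35.8 in Ctrl and 54.1 and 71.5 in KO, the log2 fold change being 0.85 ± 0.47 (SE) with an unadjusted p-value of 0.0701. Nfkb1, at 262.0 counts per kb the tallest of the list, had 0.22 ± 0.28 with overlapping genotypes.

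Setd2 itself had a 3' end peak, 840 bp upstream of its end (chr9:110617390-110618197). It held 84.8 and 84.0 in Ctrl and 58.2 and 68.1 in KO. Both KO libraries were lower, the log2 fold change being -0.43 ± 0.39 (SE) with an unadjusted p-value of 0.265. A floxed allele loses part of the gene and need not lose Pol II at its end, so this is not a check of the genotype. The elongation and H3K36 list, which also had peaks at Aff1, Paf1, Nelfb and Supt6, had a median log2 fold change of -0.11 over its 6 peaks. The Paf1 peak was shared with the convergent 3' end of Samd4b. Nelfb, a subunit of the negative elongation factor, held 38.8 and 33.1 in Ctrl and 60.6 and 73.2 in KO, with an unadjusted p-value of 0.0560.

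The 6 peaks of the 3' end formation list were at Rbbp6, Tox4, Wdr82, Rprd2 and Cstf1. At Tox4, a partner of a phosphatase complex that acts at termination, the upstream peak held 89.1 and 90.9 in Ctrl and 82.6 and 63.0 in KO. The downstream peak there held 28.0 and 35.8 against 35.1 and 40.9, so that only the upstream peak had no overlap. Both lie inside the coding gene Mettl3, and the upstream one is also near the convergent 3' end of Mettl3, so their signal cannot be credited to Tox4 alone. Wdr82, of the same complex, held 65.4 and 68.9 in Ctrl and 80.8 and 92.0 in KO. No gene of this list other than Cstf1 had an unadjusted p-value under 0.05.

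Finally the peaks were grouped by genes that the study lists for a higher or a lower mRNA level without Setd2. Those lists come from RNA-seq of other libraries, at an unadjusted threshold. The RNA was from Treg cells of the large intestine or the spleen, and the methods of the study name no IL-2c for them. All Pol II libraries here were of splenic cells from IL-2c-treated mice, so the cells are not matched. The lists were used as gene names only. Where mRNA was listed as higher in the large intestine, the 141 3' end peaks had a median log2 fold change of 0.17, and 67.4% were above 0, against 48.9% of all peaks. Both KO libraries lay above both Ctrl at 34.0% of them and below at 8.51%, against 16.2% and 16.1% of all peaks. DESeq2 gave an unadjusted p-value under 0.05 to 8 that were higher in KO and to 0 that were lower (5.67% and 0%, against 0.862% and 0.664% of all peaks). Icos, Supt20 and Cxcr6 were among them.

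At genes with lower mRNA in the large intestine, the 81 peaks had a median of -0.15 and 32.1% were above 0. Both KO libraries lay above both Ctrl at 8.64% and below at 25.9%, and Dhx38 and Cxcr4 were the 2 peaks lower at an unadjusted p-value under 0.05 (2.47%, against 0.664% of all peaks). The median was -0.01 without Ctrl 2 and -0.10 without KO 1, and -0.14 between KO 1 and Ctrl 1 alone.

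The spleen lists gave unequal pictures. At genes with higher mRNA in the spleen, the 241 peaks had a median of 0.14, with 63.1% above 0 and 9 higher and 0 lower at an unadjusted p-value under 0.05 (3.73% and 0%, against 0.862% and 0.664% of all peaks). The median was 0.05 without KO 2 and 0.10 without Ctrl 1. At genes with lower mRNA in the spleen, the 91 peaks had a median of -0.01 and 48.4% were above 0, which is close to all peaks. That list held 1 higher peak, at Clec2d, and 1 lower peak, at Dhx38, at an unadjusted p-value under 0.05. Each is 1.1% of the list, against 0.862% and 0.664% of all peaks. The 2 higher lists share 58 peaks, which is 41.1% of the large intestine peaks and 24.1% of the spleen peaks, so they are not separate observations. No list was tested against others, and the values without single libraries were added after the data were seen.

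**Figure D5:**
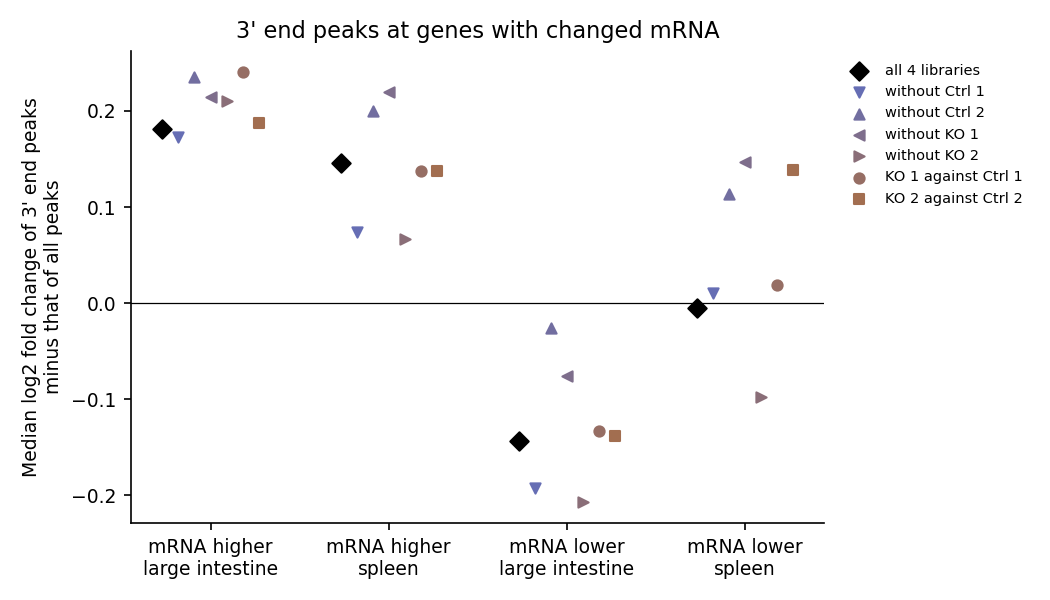
Median log2 fold change of 3' end peaks minus that of all peaks (KO over Ctrl), for genes listed with a higher or a lower mRNA level in Treg cells without Setd2 from large intestine or spleen, with all 4 libraries (diamonds), without each library in turn, and between libraries of the same number. The 2 higher lists lie above 0 under every setting shown, the lower large intestine list below 0 under every setting, and the lower spleen list on both sides.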

How the data were processed

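Per the labels and the methods of the study, the authors trimmed paired-end 150 bp CUT&Tag reads, aligned them to mm10 using Bowtie2, and retained unique alignments without duplicates. Peaks came from MACS2 with IgG as control (p-value 0.01) and were merged across libraries by bedtools, which the authors also used to obtain the deposited raw read counts per merged peak. Tool versions are not given in the sources used here. The IgG library was not analysed here, so no background was subtracted. Because peaks were called on the libraries compared, absence from the table does not mean absence of Pol II. All 4 columns were matched to labelled samples, and 0 were left without one.

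Peaks were placed with GENCODE vM21 (GRCm38); starts are counted from 1. The rule, lists and named genes were chosen with earlier results of these data known. For KO against Ctrl, the Wald test of DESeq2 1.42.0 in R 4.3.3, the study's own tool, was run on all 56615 peaks with genotype as the only term and Benjamini-Hochberg adjustment over the table. Size factors were 1.39, 0.726, 1.68 and 0.587 for Ctrl 1, Ctrl 2, KO 1 and KO 2. The ratio to the promoter was the region by genotype term of a DESeq2 model with library. Alternatives were edgeR 4.0.16, total-count scaling, a replicate block, a mean count of at least 10, a 500 bp window, and leaving out each library. Tests were checked on simulated counts that had less spread between libraries than estimated from the data, and large changes only. That check does not show how the tests perform at the spread of these data.

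Named peaks were the 10 with the highest count per kb, the 8 higher and 8 lower with the lowest unadjusted p-value among those with a mean normalized count of at least 20 and genotypes that did not overlap, the 5 highest ratios and 4 lowest p-values of the ratio in each direction, the tallest of each list, loci with low p-values in an earlier analysis, and genes with 3 peaks; others were named after their values were seen. The peaks of Cstf1 and Cideb reached the mean count of 20 only through KO. The downstream peak of Dhx38 and the peak of Sec63 reached it only through Ctrl. Similar sequences were sought with BLAST 2.17.0.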

Additional observations from a re-analysis of the deposited data

How the results depend on the processing

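No 3' end peak and no ratio to the promoter passed adjustment under any alternative run: edgeR, total-count scaling, the replicate block, the count filter, the 500 bp window and each library left out. The 32 peaks with an unadjusted p-value under 0.05 became 84 with edgeR, 11 within 500 bp of the end and between 1 and 17 without a single library, with 1 without KO 2, 12 without Ctrl 1, 13 without Ctrl 2 and 17 without KO 1. The split of 24 higher and 8 lower turned to 6 and 11 without KO 1. The replicate block gave 35 (0 after adjustment). The numbers were not taken as pairs, because the labels do not say that they mark any and there are only 2. Deviations of libraries of the same number correlated at 0.14 over 3' end peaks and at 0.23 over all peaks.

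The difference in the share of reads turned to -0.0197 points without Ctrl 1 and -0.0116 without KO 2, in a range from -0.0197 to 0.192. The median fold change of 3' end peaks minus that of all peaks, 0.040, ran from -0.0115 to 0.105 when single libraries were left out. The median at genes with lower spleen mRNA turned to 0.036 without Ctrl 1, 0.126 without Ctrl 2 and 0.121 without KO 1, and was -0.112 without KO 2. The causes were not tested. At the median 3' end peak the SE of the log2 fold change was 0.45, which covers counting error and the spread between 2 libraries per group.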
